A study of Mus musculus with 9 samples.

Results

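This experiment compared cultured cells that had received extracellular vesicles taken from control brain with cells that had received vehicle. The series design names the recipient cells as BV2, an immortalised mouse microglial line. The source and cell line labels of every library name N2a, a mouse neuroblastoma line. There were 3 libraries in each group: Vehicle (library names CON 1B3, CON 1B4 and CON 2A2), and CON-BDEV (library names EV Saline 1C1, EV Saline 2B3 and EV Saline 2B4), which received brain-derived extracellular vesicles (BDEV) labelled as control. A group not described here until the end, SE-BDEV, received brain-derived vesicles labelled SE, and the series title names status epilepticus. RNA was selected by its poly(A) tail and the library kit keeps the strand; whether counting used it is not given in the sources used here. The labels give no genotype, dose, time of exposure, or age or strain of the vesicle donors, and they do not say whether replicates were separate cultures or whether the vesicles came from pooled brains. P-values therefore reflect how far these libraries vary, and that variation may be technical. Genes were taken from the deposited table of these 6 libraries when their mean over the 6 was at least 1 FPKM, a fragment count divided by transcript length and library depth. That rule kept 10535 of 24318 genes. Another 13781 lay under the mean, and 2 were left out because the authors' estimate had failed for excess fragments. The last gene inside the rule, Caprin2, had a mean of 1.000025 FPKM and the first outside it, Zfp438, 0.999778 FPKM. The genes left out are the ferritin chains Fth1 and Ftl1, which store iron. Fth1 was listed at 14537, 13513 and 13082 FPKM in the Vehicle libraries and Ftl1 at 12600.1, 12374 and 12072 FPKM, and both are listed at 0 in the CON-BDEV libraries with that status.

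Extracellular vesicles are membrane-bound particles that cells release and that microglia, the phagocytes of the brain, take up and degrade. NRF2 is a transcription factor held down by KEAP1; when released it pairs with small MAF proteins at antioxidant response elements and raises genes for glutathione synthesis, thioredoxin reduction, detoxification and heme breakdown. SREBP factors are held in the endoplasmic reticulum by INSIG proteins when sterols are plentiful and drive genes of cholesterol and fatty acid synthesis when sterols are scarce, while LXR factors sense oxidised sterols and drive cholesterol efflux.

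The libraries held a microglial profile. Of 20 microglia and macrophage markers 16 reached 1 FPKM, with a median over the 20 of 102 FPKM, whereas P2ry12, Cx3cr1 and C1qa stayed under 1 FPKM and Sall1 was listed at 0. Of 20 neuroblastoma markers 4 reached 1 FPKM and 9 were listed at 0 in all 6 libraries, among them Mycn, Th and Dbh. For the other cells of brain tissue, 3 of 12 neuronal, 2 of 10 astrocyte, 2 of 11 oligodendrocyte and 1 of 12 endothelial, pericyte and blood markers reached 1 FPKM. Estimated depth ran from 28800000 fragments (CON-BDEV 2) to 33300000 (Vehicle 2), which gives 57.6 to 66.6 fragments for each FPKM of a transcript 2 kb long. Without the ferritin genes the summed FPKM was 586476 to 598523 in Vehicle and 600635 to 613894 in CON-BDEV. Correlations between replicates of a group ran from 0.9936 to 0.9974 over the tested genes (Pearson, log2 values, a description). The first principal component, with 43.7% of the variance, separated the groups. The second, with 24.6%, set CON-BDEV 1 (-12.3) against CON-BDEV 2 (7.79) and CON-BDEV 3 (5.96), with the Vehicle libraries between -1.34 and 0.62. In the library names, Vehicle 1, Vehicle 2 and CON-BDEV 1 carry codes that begin with 1 and the other three begin with 2; the labels do not say what that number is.

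Vesicles from control brain changed a small share of the transcriptome, mostly by small amounts, and more genes rose than fell. Against Vehicle, 597 genes passed the threshold (limma on log2 of FPKM + 1, 2-sided, Benjamini-Hochberg adjusted p under 0.05), 5.67% of those tested. Of these 401 rose (3.81%) and 196 fell (1.86%). Among the genes that rose, 18 had a log2 fold change of at least 1, 65 lay between 0.5 and 1, and 318 were under 0.5, with a median of 0.32. Among those that fell, none reached a log2 fold change of -1, 22 lay between -0.5 and -1, and the median was -0.30. The mean FPKM of the genes that rose increased by 9523 in sum, and that of the genes that fell dropped by 1937. The share of genes called rose with their level, from 3.15% at 1 to 5 FPKM to 10.2% at 100 FPKM and over. After quantile normalization of the libraries the split was 301 higher and 249 lower, so that 54.7% of calls were higher against 67.2% as deposited. All 597 had groups that did not overlap, as did 3091 of all tested genes (29.3%). In bulk RNA, a change in all cells and a larger change in some of them cannot be told apart. Folds of genes near 1 FPKM are understated on this scale because of the added 1 FPKM.

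**Figure D1:**
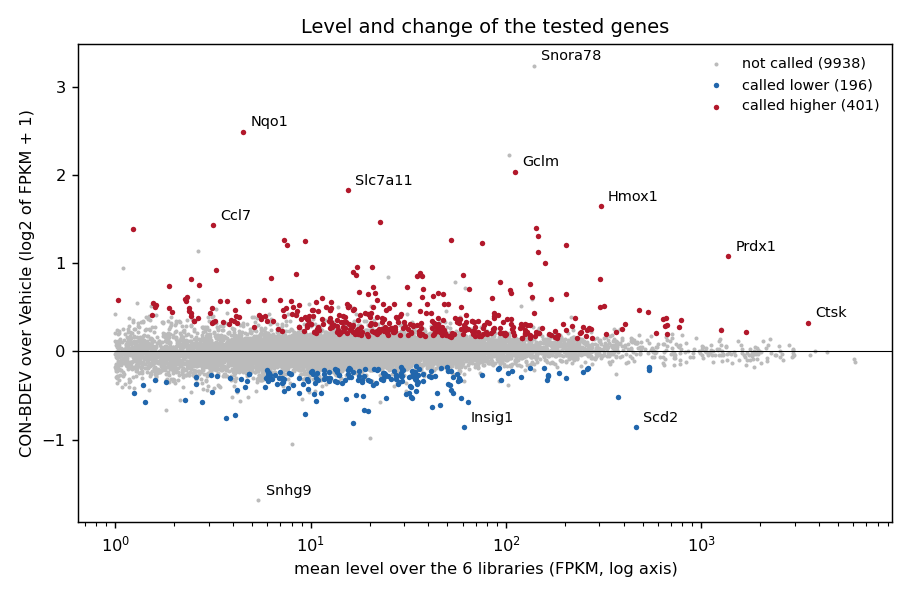
Each point is 1 of the 10535 tested genes, by its mean level over the 6 libraries (FPKM, log axis) and its difference CON-BDEV minus Vehicle in log2 of FPKM + 1; red points passed the threshold upward (401), blue points downward (196), grey points did not pass. The called genes with the largest rises, Nqo1, Gclm, Slc7a11 and Hmox1, stand between 1.65 and 2.49, and no called gene lies under -0.86. Snora78 and Snhg9 are grey and above 0 in 1 library each.

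How many genes passed depended on which libraries were in the fit. Without Vehicle 1, Vehicle 2 or Vehicle 3 the count was 110, 84 and 121, and without CON-BDEV 3 it was 133. It rose to 1067 without CON-BDEV 1 and to 905 without CON-BDEV 2. CON-BDEV 3 lay farthest from Vehicle for 263 of the 401 genes that rose and 116 of the 196 that fell, and CON-BDEV 2 lay nearest for 244 of those that rose. Those that passed in the full comparison and in each of the 6 fits without 1 library numbered 70 (0.664% of the genes tested), 56 higher and 14 lower; they are called the stable genes below. Where members of a gene list below rose or fell, their count is followed by the count in the fits without 1 library. Counts with all libraries are to be set beside the shares of all tested genes, 3.81% higher and 1.86% lower.

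**Figure D2:**
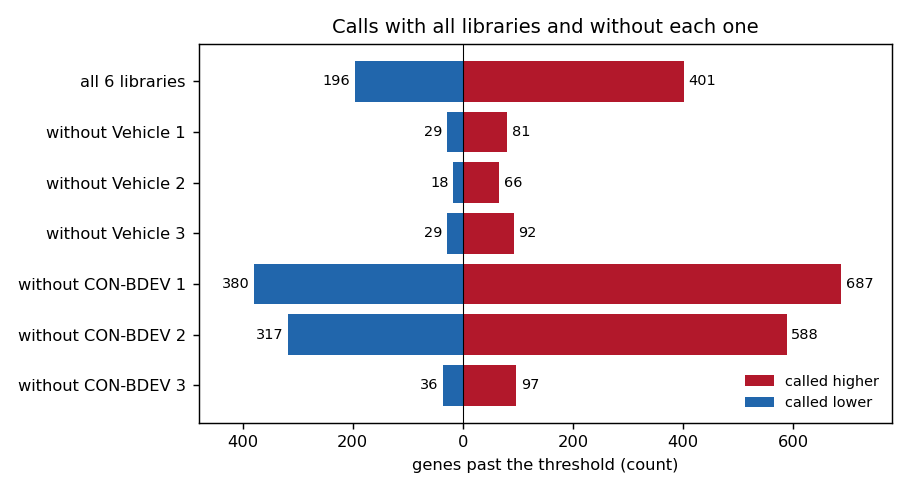
Bars give the number of genes past the threshold with all 6 libraries and without each library in turn, higher to the right in red and lower to the left in blue. The counts run from 66 higher and 18 lower without Vehicle 2 to 687 higher and 380 lower without CON-BDEV 1.

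The 4 largest rises among the genes that passed, Nqo1, Gclm, Slc7a11 and Hmox1, were in genes of antioxidant defence, heme handling and detoxification. Over 8 lists of such genes with 126 members in all, 103 were tested, 39 rose and 1 fell, with a median log2 fold change of 0.14 against 0.01 over all tested genes. These lists supply 26 of the 56 stable genes that rose (46.4%). Nqo1, an enzyme that reduces quinones, had the largest log2 fold change among the genes that passed. It was listed at 0.406, 0.597 and 0.815 FPKM in Vehicle 1, 2 and 3, and at 9.85, 4.73 and 10.6 FPKM in CON-BDEV 1, 2 and 3. All 3 vesicle libraries thus lay far above Vehicle, with CON-BDEV 2 the lowest of the 3. The log2 fold change was 2.49 (SE 0.24, limma adjusted p = 0.00164). Its listed locus in the mm9 build, chromosome 8 from 109780064 to 110082495, is listed for Nfat5, Nob1 and Wwp2 too, and the authors' deposited table gives it a q-value of 0.599.

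Cystine import and glutathione synthesis had the highest median change of the 36 lists. Of 9 genes tested, 6 rose and 0 fell (8 without CON-BDEV 2, 6 without CON-BDEV 1 and 5 without CON-BDEV 3 or any Vehicle library), with a median log2 fold change of 0.54, and all 9 had every CON-BDEV library above every Vehicle library, as did 16.6% of all tested genes. Slc7a11 imports cystine, the form in which cells take up the cysteine of glutathione. Its levels were 6.01, 6.24 and 6.15 FPKM in Vehicle and 20.2, 21.97 and 32.2 FPKM in CON-BDEV. The SD of the Vehicle libraries was 0.114 FPKM (n = 3), and the lowest vesicle library was more than 3 times above them. The log2 fold change was 1.82 (SE 0.14, limma adjusted p = 0.000909). Slc3a2, the heavy chain that carries SLC7A11 to the membrane, rose less, by 0.31, and lost its call in the fits without any 1 Vehicle library or without CON-BDEV 3. Gclm and Gclc are the modifier and catalytic subunits of the ligase that limits glutathione synthesis. Gclm was at 43.8, 39.9 and 42.8 FPKM in Vehicle and 197, 125 and 220.0 FPKM in CON-BDEV, a log2 fold change of 2.03 (SE 0.17, limma adjusted p = 0.00105). Gclc, the larger subunit, was at 36.2, 36.8 and 37.01 FPKM in Vehicle and 60.9, 49.95 and 64.4 FPKM in CON-BDEV, a log2 fold change of 0.65 (SE 0.082). The modifier subunit thus had the larger log2 change of the pair in each vesicle library; that difference was not tested. Gsr, which returns oxidised glutathione to its reduced form, went from 48.6, 47.7 and 49.5 to 88.8, 68.8 and 83.2 FPKM (log2 fold change 0.70). The exporter Abcc1, which pumps out glutathione conjugates, went from 32.1, 32.9 and 31.04 to 47.5, 41.8 and 51.6 FPKM (0.54). Gclc and Abcc1 were chosen after their values were seen.

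Promoter windows are shown for 4 of the risen genes whose 250 bases before the start site hold the core of the antioxidant response element, TGACNNNGC or its reverse complement, in capitals. The 4 genes were picked because they hold a match. The sequences are from RefSeq on GRCm38.p6, a later build than the mm9 of the deposited tables, and are written 5′ to 3′ on the strand of the gene. Gclm lies at chr3:122245307-122245556 on the + strand, Prdx1 at chr4:116685349-116685598 on the + strand, Txnrd1 at chr10:82858956-82859205 on the + strand and G6pdx at chrX:74428881-74429130 on the - strand.
Gclm: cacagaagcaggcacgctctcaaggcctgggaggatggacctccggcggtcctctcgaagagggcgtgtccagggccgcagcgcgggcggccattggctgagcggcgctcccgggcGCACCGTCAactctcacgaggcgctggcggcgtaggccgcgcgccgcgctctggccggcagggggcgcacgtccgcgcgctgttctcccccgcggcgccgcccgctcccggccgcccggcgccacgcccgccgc
Prdx1: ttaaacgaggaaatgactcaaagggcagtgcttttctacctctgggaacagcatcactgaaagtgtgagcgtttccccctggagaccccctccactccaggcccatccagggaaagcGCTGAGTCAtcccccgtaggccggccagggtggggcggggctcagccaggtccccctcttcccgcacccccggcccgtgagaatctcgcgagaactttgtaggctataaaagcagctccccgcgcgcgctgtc
Txnrd1: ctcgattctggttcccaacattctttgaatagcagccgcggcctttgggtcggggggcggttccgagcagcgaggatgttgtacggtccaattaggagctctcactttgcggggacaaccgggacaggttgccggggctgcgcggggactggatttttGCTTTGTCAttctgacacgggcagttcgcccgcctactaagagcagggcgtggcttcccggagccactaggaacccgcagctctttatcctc
G6pdx: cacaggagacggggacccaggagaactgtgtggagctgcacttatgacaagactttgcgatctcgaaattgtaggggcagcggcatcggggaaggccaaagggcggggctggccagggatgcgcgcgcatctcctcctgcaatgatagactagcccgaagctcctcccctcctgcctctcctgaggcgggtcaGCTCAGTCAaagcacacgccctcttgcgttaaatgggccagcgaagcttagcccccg
In all 4 the core is on the opposite strand, so the capitals read GC, 3 free bases and GTCA, and they begin 134, 133, 92 and 57 bases before the start site. The 9 letters are GCACCGTCA in Gclm, GCTGAGTCA in Prdx1, GCTTTGTCA in Txnrd1 and GCTCAGTCA in G6pdx. Windows of 250 bases before to 50 after a start site were matched for 8554 of the 10535 tested genes. The core was in a window of 1470 of these (17.2%), of 69 of 333 genes that rose (20.7%), of 24 of 160 that fell (15.0%), and of 14 of the 48 stable genes that rose (29.2%). The core of the sterol regulatory element, TCACCCCAC, was in windows of 57 genes (0.666%), 2 of the genes that rose and none of the 160 that fell. The palindromic E-box of lysosomal genes, TCACGTGA, was in 2.42% of all, 2.7% of the risen and 1.88% of the fallen genes. Both strands were searched, the E-box reading the same on both, and each of the other motifs can share its end letters with the antioxidant core. Among the 4 largest rises of called genes, Nqo1, Gclm, Slc7a11 and Hmox1, a match to the antioxidant core was found only for Gclm. The fallen genes Pmvk and Tuba1a each held 1 match to that core. All of these are matches of letters in short windows, not sites of binding.

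Several enzymes of the thioredoxin system and some that remove peroxides rose. In the peroxiredoxin and thioredoxin list 7 of 16 genes rose and 0 fell (7 without CON-BDEV 1, 6 without CON-BDEV 2, 4 without CON-BDEV 3 and 3 without any Vehicle library). Prdx1, an abundant peroxiredoxin that removes hydrogen peroxide, was at 852, 855 and 926 FPKM in Vehicle and 1949, 1575 and 2079 FPKM in CON-BDEV. Its mean thus rose by 990.4 FPKM, the largest gain in mean level among the genes that passed, with a log2 fold change of 1.08 (SE 0.091, limma adjusted p = 0.00105). Srxn1, which repairs overoxidised peroxiredoxin, went from 43.2, 40.9 and 42.04 to 85.9, 62.1 and 86.2 FPKM (0.86). Txnrd1, which reduces thioredoxin with NADPH, went from 107, 106 and 105 to 176, 142 and 174 FPKM (0.62). All 3 are stable genes, and in each CON-BDEV 2 is the lowest vesicle library. Among peroxidases, dismutases and catalase 2 of 8 rose, in each of the 6 fits too, and 1 fell (1 without CON-BDEV 1 or CON-BDEV 2 and 0 without CON-BDEV 3 or any Vehicle library). Cat, the peroxisomal catalase, was at 89.1, 89.6 and 92.6 FPKM in Vehicle and 213, 162 and 225 FPKM in CON-BDEV (log2 fold change 1.12, SE 0.10). Sod1, the cytosolic superoxide dismutase, was at 399.6, 401 and 411 and 544, 519 and 617 FPKM (0.47). Gpx1, a selenium-dependent glutathione peroxidase, fell instead, from 226, 213 and 231 to 195, 188 and 162 FPKM (-0.30, limma adjusted p = 0.037), with CON-BDEV 3 the lowest; the call was lost in 4 of the 6 fits without 1 library.

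Some conjugating and reducing enzymes for reactive compounds rose too. Of 12 glutathione S-transferases tested 3 rose and 0 fell (higher 4 without CON-BDEV 1 or CON-BDEV 2 and 3 without CON-BDEV 3 or any Vehicle library; lower 2 without CON-BDEV 2 and 0 without each of the others). The 3 are stable: Mgst2 (26.3, 23.9 and 24.9 to 49.6, 39.4 and 54.1 FPKM, log2 fold change 0.89), Gstm1 (220.4, 215 and 214 to 424, 303 and 434 FPKM, 0.82) and Mgst1 (76.4, 77.6 and 85.2 to 134, 118 and 139 FPKM, 0.70). MGST1 and MGST2 sit in membranes, whereas GSTM1 is cytosolic and belongs to a cluster of similar genes that share sequence. Of 19 quinone and carbonyl reductases 7 rose and 0 fell (higher 7 without CON-BDEV 1 or CON-BDEV 2, 6 without CON-BDEV 3, 5 without Vehicle 1 or Vehicle 3 and 4 without Vehicle 2; lower 3 without CON-BDEV 2 and 0 without each of the others), led after Nqo1 by Ptgr1, which reduces lipid-derived enones, at 29.3, 31.01 and 29.95 against 74.1, 60.8 and 87.9 FPKM (1.26). Esd, an esterase that completes formaldehyde clearance, doubled with little scatter: 105, 106 and 106 FPKM in Vehicle and 212, 194 and 231 FPKM in CON-BDEV, a log2 fold change of 1.00 (SE 0.059, limma adjusted p = 0.000186). The median of the quinone and carbonyl list was 0.04, so most of its members did not follow these leaders.

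Part of the genes that supply NADPH, which the glutathione and thioredoxin reductases consume, rose. Of 13 genes tested 4 rose (4 without CON-BDEV 1 or CON-BDEV 2 and 3 without CON-BDEV 3 or any Vehicle library) and 0 fell. Me1, the cytosolic malic enzyme, was at 14.8, 14.8 and 16.8 FPKM in Vehicle and 27.99, 23.1 and 27.7 FPKM in CON-BDEV (0.73). G6pdx, the first enzyme of the pentose phosphate pathway, was at 154, 156 and 159.8 against 266, 215 and 260.5 FPKM (0.65). Taldo1, which recycles its sugars, was at 259, 254 and 269 against 366, 349 and 405 FPKM (0.51). These 3 are stable, while Pgd, the next oxidative enzyme of that pathway (0.50, chosen after its values were seen), lost its call in 4 of the 6 fits.

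Heme breakdown and iron transport gave 7 of 16 genes higher and 0 lower (8 without CON-BDEV 2, 7 without CON-BDEV 1, 6 without Vehicle 1 and 5 without each of the others). Slc48a1 carries heme out of the phagolysosome, Hmox1 opens its ring, Blvrb reduces the biliverdin formed, and Slc40a1 exports the freed iron. Slc48a1 was at 75.3, 77.2 and 79.5 FPKM in Vehicle and 232, 158 and 236 FPKM in CON-BDEV (1.40, limma adjusted p = 0.00164). Hmox1 was at 136, 141 and 143 FPKM in Vehicle and 578, 260.4 and 569 FPKM in CON-BDEV. CON-BDEV 2 was well below the other 2 vesicle libraries, and the log2 fold change of 1.65 (SE 0.25, limma adjusted p = 0.0114) lost its call without Vehicle 2, Vehicle 3 or CON-BDEV 3. Blvrb was at 44.2, 45.2 and 43.8 FPKM in Vehicle and 104, 95.1 and 119 FPKM in CON-BDEV (1.23, SE 0.071, limma adjusted p = 0.000186). Slc40a1 went from 13.98, 13.7 and 13.01 to 28.6, 22.05 and 32.2 FPKM (0.96), Slc11a1, the phagosomal metal transporter, from 69.9, 66.8 and 66.97 to 121, 106 and 126 FPKM (0.78), and Alas1, the first enzyme of heme synthesis, from 18.9, 19.5 and 17.9 to 25.98, 23.6 and 25.2 FPKM; these 3 were chosen after their values were seen. Tfrc, the transferrin receptor that brings iron in, was at 165, 191 and 199 against 289.8, 211 and 231 FPKM and did not pass (limma adjusted p = 0.077, also chosen after its values were seen). The ferritin chains, the storage end of this pathway, could not be compared since their CON-BDEV values are failed estimates.

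Some regulators of the antioxidant program rose. Of 10 tested 3 rose (4 without CON-BDEV 1, 3 without CON-BDEV 2 and 1 without CON-BDEV 3 or any Vehicle library). That share, 30%, stands against 3.81% of all tested genes, and 9 of the 10 had a log2 fold change above 0. Sqstm1, an autophagy receptor that binds KEAP1, was at 138, 132 and 136 FPKM in Vehicle and 197, 188 and 231 FPKM in CON-BDEV (0.59, limma adjusted p = 0.00426), and it is the stable one. Bach1, a repressor of the same elements, rose by 0.28 and the small MAF partner Mafg by 0.26. The mRNA of NRF2 itself, Nfe2l2, was at 98.9, 96.7 and 99.2 FPKM in Vehicle and 95.6, 89.8 and 88.99 FPKM in CON-BDEV (-0.10, limma adjusted p = 0.176), and that of Keap1 at 12.4, 13.1 and 12.03 and 13.8, 12.2 and 12.3 FPKM (0.03, limma adjusted p = 0.843); both were chosen after their values were seen.

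**Figure D3:**
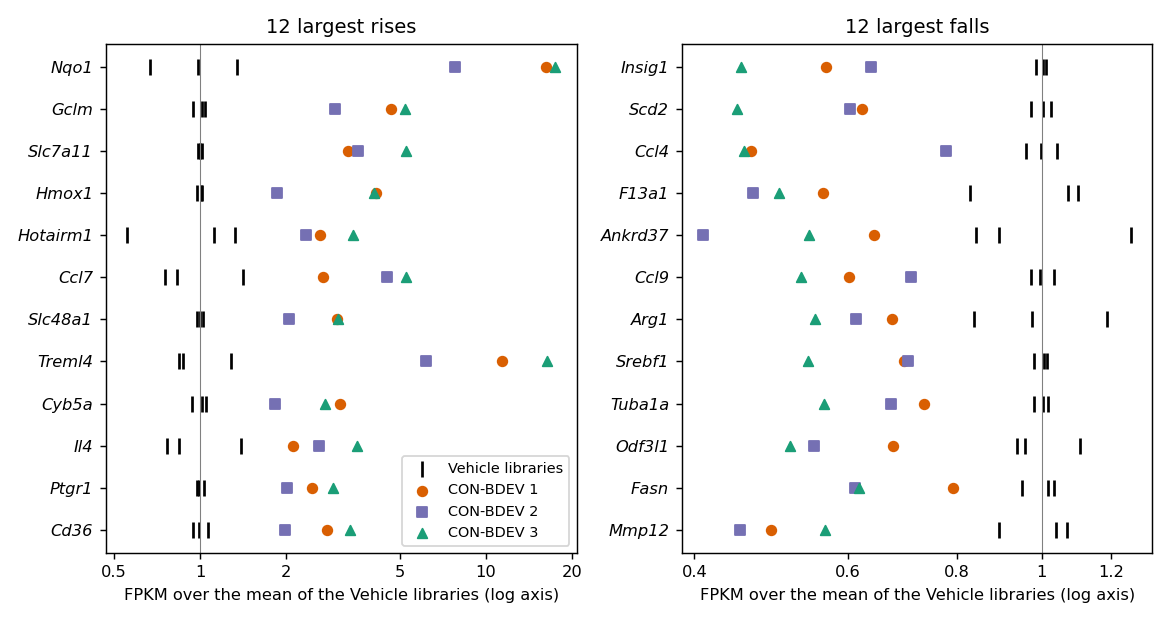
For the 12 largest rises (left) and the 12 largest falls (right) among called genes whose groups do not overlap, each mark gives the level in 1 library over the mean of the 3 Vehicle libraries (log axis); black ticks are Vehicle libraries and coloured marks the CON-BDEV libraries. CON-BDEV 2 is the vesicle library nearest to Vehicle for most of the rises, such as Hmox1 at 260.4 FPKM against 578 and 569, and CON-BDEV 3 the farthest for falls such as Insig1 and Scd2.

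Many genes of lipid synthesis, sensing and efflux fell and none rose. Over 4 lists of sterol synthesis, SREBP sensing, fatty acid synthesis and LXR targets with 62 genes in all, 54 were tested, 26 fell and 0 rose, with a median log2 fold change of -0.26. Among all tested genes 1.86% fell and 3.81% rose. The largest falls were smaller than the largest antioxidant rises, none reached a factor of 2, and 4 of the 26 are stable genes (Insig1, Scd2, Srebf1 and Abca1).

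Of 19 sterol synthesis genes 10 fell (52.6%, against 1.86% of all tested genes), with a median of -0.38. The count was 14 without CON-BDEV 1, 11 without CON-BDEV 2, 5 without CON-BDEV 3, 4 without Vehicle 1, 1 without Vehicle 2 and 0 without Vehicle 3. Levels were below the lowest Vehicle library in all 3 CON-BDEV libraries for 14 of the 19 (73.7%, against 12.7% of all tested genes). The median difference from the Vehicle mean was -0.23 in CON-BDEV 1, -0.28 in CON-BDEV 2 and -0.59 in CON-BDEV 3. Fdps, which makes farnesyl diphosphate, was at 442, 428 and 452 FPKM in Vehicle and 313, 349 and 266 FPKM in CON-BDEV (-0.52, limma adjusted p = 0.0123). Lss, which forms the first sterol of the pathway, was at 17.6, 18.4 and 18.5 against 13.5, 12.96 and 10.4 FPKM (-0.54). Pmvk, a kinase of the mevalonate pathway, was at 61.99, 60.2 and 65.4 against 44.8, 49.6 and 40.05 FPKM (-0.48). The late enzymes Ebp (-0.03) and Sc5d (-0.08) and the prenyl branch enzyme Ggps1 (0.18) did not pass, and Hmgcs1 is listed at 0 in these libraries, so it was not tested; these 4 were chosen after their values were seen.

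Some genes that sense sterol and drive its synthesis fell too. Of 12 tested 4 fell (5 without CON-BDEV 1, 3 without CON-BDEV 2 and 2 without CON-BDEV 3 or any Vehicle library). Insig1, the brake that SREBP itself drives, was at 78.7, 79.3 and 77.2 FPKM in Vehicle and 44.3, 49.99 and 35.5 FPKM in CON-BDEV (-0.86, SE 0.10, limma adjusted p = 0.00426). Srebf1 was at 51.5, 51.1 and 49.7 against 35.3, 35.7 and 27.4 FPKM (-0.62); its listed locus, chromosome 11 from 59918515 to 60034106 in mm9, is listed for Rai1 too. Of 14 fatty acid synthesis and desaturation genes 8 fell (57.1%, against 1.86% of all tested genes). The count was 9 without CON-BDEV 1 or CON-BDEV 2, 5 without Vehicle 1, 2 without CON-BDEV 3 and 1 without Vehicle 2 or Vehicle 3. Scd2, the desaturase that makes monounsaturated fatty acids, was at 578, 611 and 597 FPKM in Vehicle and 371, 359 and 266 FPKM in CON-BDEV, a loss of 263 FPKM in the mean and the largest of any called gene (-0.86, SE 0.11, limma adjusted p = 0.00548). Fasn, the fatty acid synthase, was at 72.1, 77.4 and 78.6 against 60.1, 46.4 and 46.9 FPKM (-0.57) and lost its call without Vehicle 2, Vehicle 3 or CON-BDEV 3, and Acaca, which makes its malonyl-CoA, fell by 0.33 on the log2 scale.

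Some genes of cholesterol export fell as well. Of 11 LXR targets and efflux genes 5 fell (45.5%, against 1.86% of all tested genes), among them Srebf1, which is in this list also. The lower count was 6 without CON-BDEV 1, 5 without CON-BDEV 2 and 2 without CON-BDEV 3 or any Vehicle library. The higher count was 0 with all libraries, 1 without CON-BDEV 1 and 0 without each of the others. Abca1, which loads cholesterol onto apolipoproteins, was at 34.1, 37.8 and 35.7 FPKM in Vehicle and 24.5, 26.8 and 24.7 FPKM in CON-BDEV (-0.49, limma adjusted p = 0.00426). Apoc2, a lipoprotein lipase activator, was at 12.7, 11.3 and 12.6 against 9.83, 7.43 and 8.29 FPKM (-0.48). Apoe, the main apolipoprotein of these cells, was at 3059, 2959 and 2893 FPKM in Vehicle and 2753, 2766 and 3003 FPKM in CON-BDEV with overlapping groups (limma adjusted p = 0.424, chosen after its values were seen). In the list of lipid droplets and fatty acid oxidation 3 of 19 rose (5 without CON-BDEV 2, 4 without CON-BDEV 1 and 0 without CON-BDEV 3 or any Vehicle library) and 2 fell (3 without CON-BDEV 2, 2 without CON-BDEV 1 or CON-BDEV 3, 1 without Vehicle 1 and 0 without Vehicle 2 or Vehicle 3). The mitochondrial dehydrogenases Acadvl (0.33) and Acadl (0.33) were higher, and Fabp4, a fatty acid carrier of macrophages, was lower at 26.3, 30.4 and 23.6 FPKM against 36.05, 39.97 and 39.4 FPKM (-0.51).

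Some receptors and enzymes of uptake and degradation rose, most of them by small amounts. Of 14 scavenger and apoptotic cell receptors 5 rose and 0 fell (7 without CON-BDEV 2, 5 without CON-BDEV 1, 2 without Vehicle 3 and 1 without each of the others). Cd36, a receptor for oxidised lipids and fatty acids and the stable one of these, was at 4.77, 5.37 and 4.99 FPKM in Vehicle and 14.04, 10.02 and 16.8 FPKM in CON-BDEV (1.25, SE 0.15, limma adjusted p = 0.00426). Marco was at 4.24, 3.89 and 5.08 against 6.22, 6.65 and 8.50 FPKM (0.58) and the integrin Itgav at 8.45, 9.69 and 8.93 against 14.01, 11.3 and 13.1 FPKM (0.46). Of 30 lysosomal hydrolases and membrane proteins 7 rose and 0 fell (12 without CON-BDEV 2, 7 without CON-BDEV 1 and 1 without CON-BDEV 3 or any Vehicle library), and 18 of the 30 had all vesicle libraries above all Vehicle libraries (60.0%, against 16.6% of all tested genes). Lipa, which frees cholesterol and fatty acids from esters in the lysosome, was at 97.6, 96.5 and 98.4 FPKM in Vehicle and 170.1, 143 and 191 FPKM in CON-BDEV (0.77, limma adjusted p = 0.00426) and is the stable one. The cathepsins Ctsk, Ctsz and Ctsd, among the most abundant mRNAs of these cells, gained 798, 214 and 265 FPKM in the mean, with log2 fold changes of 0.33, 0.24 and 0.22. Creg1, a lysosomal glycoprotein chosen after its values were seen, moved far more than the listed hydrolases, from 121, 124 and 122 to 301, 235 and 319 FPKM (1.205, limma adjusted p = 0.000909).

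Other parts of the same route moved less. The proton pump had 3 of 18 subunits higher and 0 lower, and Atp6v0b (0.27) and Atp6ap2 (0.27) led the higher ones. The higher count was 4 without CON-BDEV 2, 3 without CON-BDEV 1, 1 without CON-BDEV 3 or Vehicle 3 and 0 without Vehicle 1 or Vehicle 2. The lower count was 1 without CON-BDEV 2 and 0 without each of the others. The largest log2 change of the list was a fall (-0.35) that did not pass. By the authors' deposited Cuffdiff q-values 0 subunits were higher and 1 was lower. Autophagy genes had 3 of 22 higher (4 without CON-BDEV 1 or CON-BDEV 2 and 1 without CON-BDEV 3 or any Vehicle library), with Gabarapl1 (0.31), which coats autophagosomes, and Mitf (0.37), a transcription factor of lysosomal genes, beside Sqstm1. The shares of pump and autophagy genes that rose, 16.7% and 13.6%, stand against 3.81% of all tested genes. All vesicle libraries lay above all Vehicle libraries for 8 pump subunits (44.4%) and 8 autophagy genes (36.4%), against 16.6% of all tested genes. They lay below for 1 pump subunit and 0 autophagy genes. Of 25 vesicle tetraspanins, ESCRT and Rab genes 1 rose (2 without CON-BDEV 2 and 1 without each of the others), Cd63, a tetraspanin of late endosomes and of vesicles, at 572, 576 and 574 FPKM in Vehicle and 717, 708 and 812 FPKM in CON-BDEV (0.37, limma adjusted p = 0.00864). That share, 4%, is close to the 3.81% of all genes that rose.

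Immune genes did not move as a block. Of 8 chemokines and receptors tested 3 rose (3 without CON-BDEV 1 or CON-BDEV 2 and 2 without CON-BDEV 3 or any Vehicle library) and 2 fell (3 without CON-BDEV 2, 2 without CON-BDEV 1 and 1 without CON-BDEV 3 or any Vehicle library). Ccl7 and Ccl2, neighbouring genes whose products attract monocytes through CCR2, rose: Ccl7 from 1.02, 0.926 and 1.74 to 3.29, 5.53 and 6.43 FPKM (1.43, limma adjusted p = 0.00864) and Ccl2 from 24.9, 24.2 and 29.3 to 40.1, 54.95 and 50.3 FPKM (0.86, limma adjusted p = 0.00591). In both, CON-BDEV 2 and 3 were the higher vesicle libraries, as they were for the receptor Cxcr4 (17.6, 16.7 and 16.96 to 20.4, 26.7 and 27.4 FPKM, 0.50, chosen after its values were seen). Ccl4 and Ccl9, chemokines that act through other receptors, fell: Ccl4 from 20.3, 22.001 and 21.1 to 9.81, 16.4 and 9.63 FPKM (-0.81), with CON-BDEV 2 closest to Vehicle, and Ccl9 from 24.3, 23.7 and 25.2 to 14.6, 17.3 and 12.9 FPKM (-0.68, limma adjusted p = 0.00591). Ccl4 lost its call in 4 of the 6 fits and Ccl9 in none. Of 23 cytokine, NF-kB and inflammasome genes 3 rose (3 without CON-BDEV 2, 2 without CON-BDEV 1 or CON-BDEV 3, 1 without Vehicle 3 and 0 without Vehicle 1 or Vehicle 2): Casp1 (0.54), the inflammasome protease, Tlr2 (0.48), a receptor for lipoproteins, and Saa3 (0.34), an acute phase protein. Tnf (8.52, 8.42 and 8.97 against 8.99, 10.7 and 9.32 FPKM) and Il1b (5.28, 5.30 and 4.97 against 7.29, 6.80 and 5.41 FPKM) did not pass (limma adjusted p = 0.241 and 0.122, chosen after their values were seen).

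Lipid mediator genes rose in 4 of 10 cases (4 without CON-BDEV 1 or CON-BDEV 2, 2 without CON-BDEV 3, 1 without Vehicle 1 or Vehicle 3 and 0 without Vehicle 2). Pla2g4a, which frees arachidonic acid, rose by 0.33, and Ptgs2, which turns it into prostaglandins, went from 1.74, 1.76 and 1.68 to 2.93, 3.46 and 4.48 FPKM (0.75); Ltc4s, on the leukotriene branch, rose by 0.60, a call kept in 1 of the 6 fits. Complement had 3 of 11 higher and 1 lower: C1qc was at 11.6, 14.2 and 14.3 against 26.2, 18.2 and 22.01 FPKM (0.68), C1qb at 39.3, 35.2 and 41.9 against 62.2, 48.9 and 60.2 FPKM (0.54), and the receptor C5ar1 fell (-0.38) (higher 4 without CON-BDEV 1, 3 without CON-BDEV 2, 2 without Vehicle 3 and 0 without each of the others; lower 2 without CON-BDEV 1 and 0 without each of the others). Type I interferon genes had 0 of 15 higher and 2 lower, Ifitm3 (-0.37) and Oas1a (-0.32), each past the threshold in 2 of the 6 fits (3 without CON-BDEV 2, 2 without CON-BDEV 1 and 0 without CON-BDEV 3 or any Vehicle library). The share that fell, 13.3%, stands against 1.86% of all tested genes. All vesicle libraries lay below all Vehicle libraries for 7 of the 15 (46.7%, against 12.7% of all tested genes) and above them for 1. Among 20 disease-associated microglia genes 3 rose (6 without CON-BDEV 1, 3 without CON-BDEV 2 and 1 without CON-BDEV 3 or any Vehicle library) and 1 fell (2 without CON-BDEV 2, 1 without CON-BDEV 1 and 0 without CON-BDEV 3 or any Vehicle library), with a median of 0.00. Cd63 and Ctsd were higher and Lgals3, a lectin, lower (-0.18), while Trem2, Tyrobp, Spp1 and Apoe, chosen after their values were seen, did not pass (limma adjusted p = 0.255, 0.613, 0.281 and 0.424). Cybb, the catalytic subunit of the phagocyte NADPH oxidase, fell from 40.5, 38.9 and 39.5 to 30.4, 32.02 and 30.4 FPKM (-0.35, limma adjusted p = 0.00503) and is stable, whereas its partner Cyba rose by 0.20 (limma adjusted p = 0.0248) and Ncf1 was at 0.02; these 3 were also chosen after their values were seen.

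Single genes with large changes lay outside these groups. Treml4, a TREM-like receptor of myeloid cells, went from 0.257, 0.174 and 0.168 to 2.26, 1.23 and 3.26 FPKM (1.39); without CON-BDEV 3 its mean fell under 1 FPKM and it was not tested. Il4, a cytokine best known from T helper cells and mast cells, was at 3.30, 5.45 and 3.004 against 8.26, 10.2 and 13.8 FPKM (1.26, limma adjusted p = 0.0117) and lost its call without Vehicle 1 or Vehicle 3. Hotairm1, a long non-coding RNA of the HOXA cluster, was at 15.8, 13.4 and 6.64 against 31.4, 27.99 and 40.7 FPKM (1.47), with the 3 Vehicle libraries themselves spread more than 2 times apart. Agt, the precursor of angiotensin (chosen after its values were seen), went from 4.22, 4.20 and 4.06 to 10.2, 9.23 and 13.6 FPKM (1.201). Cyb5a, an electron carrier of the endoplasmic reticulum that serves desaturases, went from 76.7, 85.6 and 82.96 to 252, 149 and 224 FPKM (1.31), opposite to Scd2. Falling singly were F13a1, a transglutaminase of macrophages (4.02, 5.20 and 5.35 to 2.73, 2.27 and 2.43 FPKM, -0.75), Tuba1a, a tubulin (56.5, 54.5 and 55.7 to 40.7, 37.3 and 31.2 FPKM, -0.60), Arg1, which consumes arginine (19.4, 22.6 and 27.4 to 15.6, 14.2 and 12.7 FPKM, -0.66), and Mmp12, the macrophage elastase (2.01, 1.68 and 1.96 to 0.922, 0.848 and 1.06 FPKM, -0.57). F13a1 and Tuba1a are stable. Arg1 lost its call without Vehicle 2 or CON-BDEV 3, and Mmp12 without Vehicle 1 or Vehicle 3.

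Markers of other cell types were set beside these changes because the vesicles came from brain. The summed level of the 12 neuronal markers was 20.5 to 21.6 FPKM in Vehicle and 21.5 to 22.6 FPKM in CON-BDEV, with Gad1 and Grin1 listed at 0, that of the 11 oligodendrocyte markers 14.2 to 14.5 and 10.9 to 13.7 FPKM, and that of the 10 astrocyte markers 149 to 153 and 131 to 147 FPKM. None of the neuronal or oligodendrocyte markers passed. The neuroblastoma list summed to 89.6 to 93.1 FPKM in Vehicle and 112.8 to 120.5 FPKM in CON-BDEV, a difference carried by Uchl1, a neuronal deubiquitinating enzyme that was already expressed in Vehicle (76.6, 72.5 and 72.1 against 96.6, 97.3 and 106 FPKM, 0.43, limma adjusted p = 0.00426, chosen after its values were seen). The 20 microglia and macrophage markers summed to 4030 to 4185 FPKM in Vehicle and 4200 to 4464 FPKM in CON-BDEV, with Aif1, Lyz2 and Laptm5 among the higher ones and Cd14 lower, named after their values were seen. The part of these shifts in the other results was not tested.

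**Figure D4:**
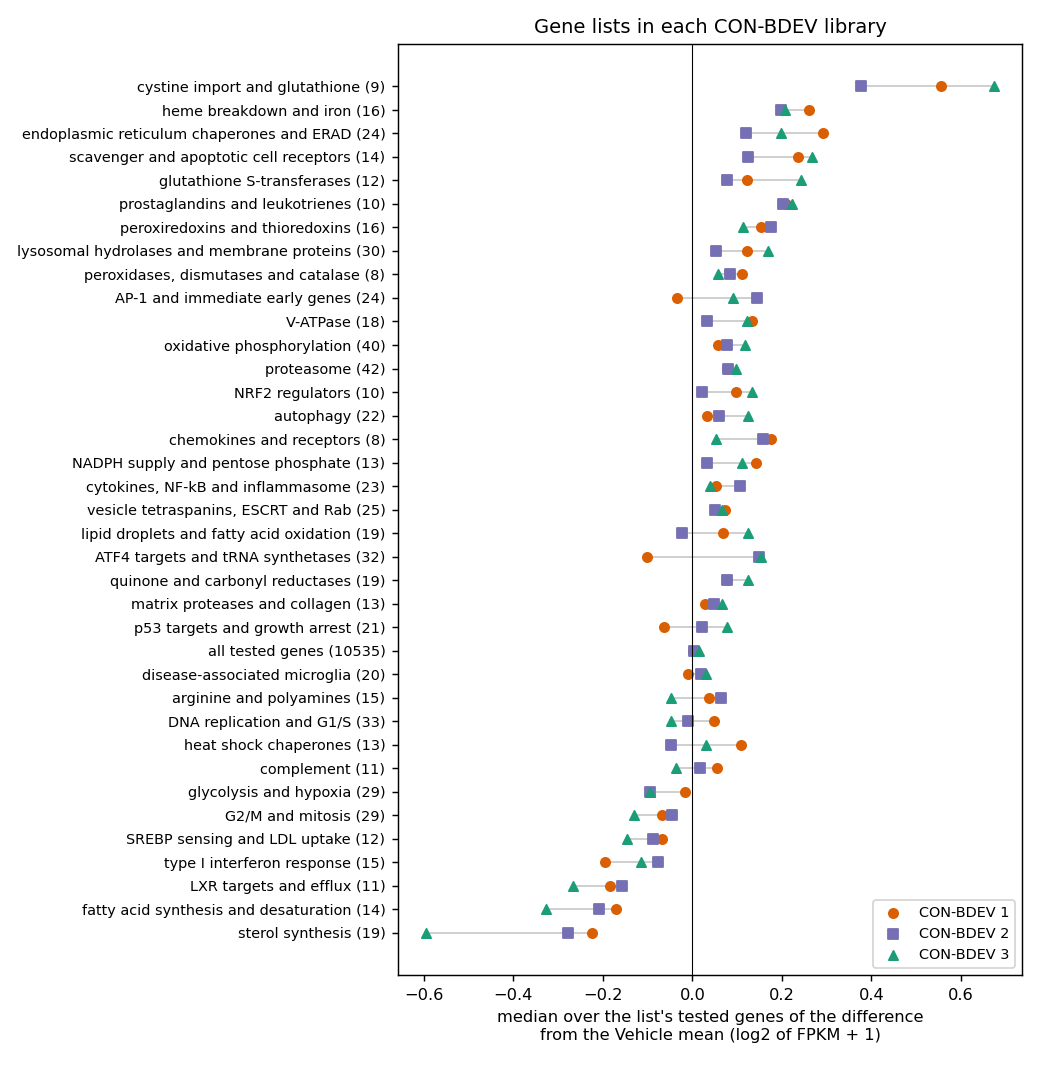
Each row is 1 gene list, with the number of its tested genes, and each mark the median over those genes of the difference between 1 CON-BDEV library and the Vehicle mean (log2 of FPKM + 1). Cystine import and glutathione (0.38 to 0.67) and sterol synthesis (-0.59 to -0.23) lie at the ends on the same side of 0 in all 3 libraries, while ATF4 targets, AP-1 genes and p53 targets change sign between CON-BDEV 1 and the other 2.

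The vesicle libraries parted in the genes of the integrated stress response, in which ATF4 and its partner CHOP (Ddit3) raise amino acid supply and stress genes when protein synthesis is checked. With all libraries 3 of 32 genes rose and 0 fell: Slc6a9, a glycine transporter (11.7, 12.03 and 11.4 against 17.9, 20.8 and 28.9 FPKM, 0.86), Slc3a2 and Slc38a2 (0.28), another amino acid transporter. The list's count was 15 without CON-BDEV 1, 3 without CON-BDEV 2, 1 without CON-BDEV 3 or Vehicle 2 and 0 without Vehicle 1 or Vehicle 3. The median difference from the Vehicle mean was -0.10 in CON-BDEV 1 and 0.15 in both CON-BDEV 2 and CON-BDEV 3. In 17 of the 32 genes (53.1%) CON-BDEV 2 and 3 lay above every Vehicle library and CON-BDEV 1 did not, a pattern found in 8.67% of all tested genes. Ddit3 was at 44.05, 34.5 and 33.2 FPKM in Vehicle and 30.2, 99.97 and 87.1 FPKM in CON-BDEV. CON-BDEV 1 was thus below all Vehicle libraries and the other 2 were more than 2 times as high as the Vehicle mean. Trib3, a pseudokinase that CHOP drives, was at 18.3, 15.2 and 15.6 against 14.6, 46.2 and 39.7 FPKM. Nupr1, a stress-induced chromatin protein, was at 47.1, 44.2 and 43.6 against 47.1, 91.9 and 94.5 FPKM. Chac1, which degrades glutathione, was at 2.31, 1.37 and 1.70 against 1.35, 4.85 and 4.21 FPKM, Sesn2 at 27.9, 25.2 and 25.05 against 25.2, 41.2 and 41.6 FPKM, and Slc1a4 at 6.31, 6.42 and 6.12 against 6.10, 10.3 and 10.7 FPKM. Of these 6, none passed with all libraries (limma adjusted p from 0.0935 for Nupr1 to 0.273 for Chac1) and all passed without CON-BDEV 1; they were chosen after their values were seen. The next 4 genes were picked out in the same way. Atf4 itself, which is controlled mainly in translation, was at 349.6, 328 and 339.8 FPKM in Vehicle and 335, 448 and 421 FPKM in CON-BDEV. None of the 13 tRNA synthetases of the list passed, with log2 fold changes from -0.05 for Sars to 0.11 for Nars. Asns, an ATF4 target, was at 149, 135 and 139.9 against 113, 146 and 133 FPKM, lowest in CON-BDEV 1.

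Among these 6 libraries the split coincides with the first number of the library names. That number is 1 for CON-BDEV 1, Vehicle 1 and Vehicle 2 and 2 for the others. CON-BDEV 1 is the only vesicle library of this comparison with number 1, so the number cannot be separated from that library. Within number 1 the median log2 difference of the ATF4 list was -0.10 and within number 2 it was 0.17. For AP-1 genes the values were -0.07 and 0.12, and for chaperones of the endoplasmic reticulum 0.34 and 0.09. The 8 antioxidant, heme and iron lists and the 4 lipid lists had the same sign within both: 0.54 and 0.57 for cystine import and glutathione, 0.27 and 0.17 for heme and iron, -0.22 and -0.48 for sterol synthesis, and -0.15 and -0.33 for fatty acid synthesis. For single genes, the difference within number 1 and within number 2 was 2.21 and 1.93 for Gclm, 1.57 and 1.95 for Slc7a11, 2.05 and 1.42 for Hmox1, -0.82 and -0.86 for Insig1 and -0.68 and -0.95 for Scd2. These values rest on 1 to 2 libraries a side and have no test. What the number marks, a difference between vesicle preparations, and a difference between cultures cannot be told apart here.

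**Figure D5:**
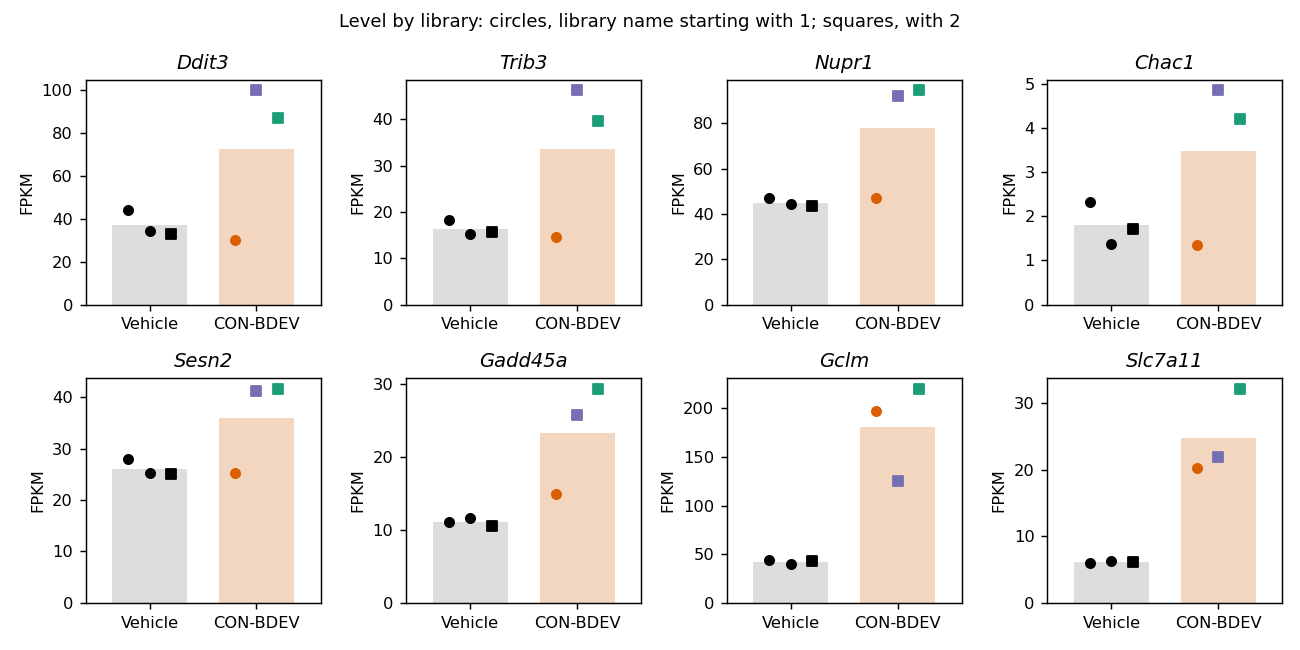
Panels give the FPKM of 8 genes, with bars for the group means, black marks for Vehicle and coloured marks for CON-BDEV 1 (orange), 2 (purple) and 3 (green); circles are libraries whose name starts with 1 and squares those that start with 2. Ddit3, Trib3, Nupr1, Chac1 and Sesn2 are high in CON-BDEV 2 and 3 and at or near the Vehicle level in CON-BDEV 1, Gadd45a is raised in all 3 and less in CON-BDEV 1, and Gclm and Slc7a11 are raised in all 3.

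Other stress lists divided in the same or the opposite way. Gadd45a, a growth arrest gene of the p53 list, was at 11.1, 11.7 and 10.5 against 14.9, 25.7 and 29.3 FPKM (0.96) and Gadd45g at 29, 28.7 and 28.1 against 34.2, 47.1 and 54.8 FPKM (0.62), both lowest in CON-BDEV 1 among the vesicle libraries, while Gadd45b fell (-0.32); the list had 2 of 21 higher (5 without CON-BDEV 1, 1 without CON-BDEV 2 and 0 without CON-BDEV 3 or any Vehicle library) and 2 lower (3 without CON-BDEV 2, 2 without CON-BDEV 1 and 0 without CON-BDEV 3 or any Vehicle library). AP-1 and immediate early genes had 4 of 24 higher (16.7%, against 3.81% of all tested genes) and 0 lower. Fosl1 (0.44), Plk3 (0.27) and Ier3 (0.27) were among the higher ones. The higher count was 7 without CON-BDEV 1, 1 without CON-BDEV 2 or Vehicle 3 and 0 without each of the others. The lower count was 1 without CON-BDEV 1 or CON-BDEV 2 and 0 without each of the others. The largest log2 change of the list was a fall, in Jund (-0.57), chosen after its values were seen. Jund lay below every Vehicle library in all vesicle libraries and did not pass (limma adjusted p = 0.064). Fos was at 11.4, 10.6 and 10.96 against 10.5, 19.98 and 19.2 FPKM and did not pass (limma adjusted p = 0.16, chosen after its values were seen). Chaperones of the endoplasmic reticulum had 8 of 24 higher and 0 lower, with a median of 0.22, and 12 without CON-BDEV 2, 9 without CON-BDEV 1, 2 without CON-BDEV 3 and 0 without any Vehicle library. Here CON-BDEV 1 tended to be highest: Calr, a calcium-binding chaperone, was at 653, 668 and 745 against 993, 779 and 887 FPKM (0.36), and the list's median difference was 0.29 in CON-BDEV 1, 0.12 in CON-BDEV 2 and 0.20 in CON-BDEV 3. Herpud1, a member of the same list that helps degrade misfolded proteins, had the order of the ATF4 genes instead (19.5, 18.7 and 18.2 against 22.2, 30.7 and 31.7 FPKM, 0.54). Cytosolic and mitochondrial heat shock chaperones had 0 of 13 past the threshold by limma (higher 1 without CON-BDEV 2 and 0 without each of the others; lower 1 without CON-BDEV 1 and 0 without each of the others), with 2 at an unadjusted p under 0.05 and 1 by the authors' deposited Cuffdiff q-values. Hspa8 was at 1765, 1805 and 1889 against 2049, 1401 and 1718 FPKM (-0.10) and Hsp90ab1 at -0.02. Proteasome subunits had 4 of 42 higher (8 without CON-BDEV 2, 7 without CON-BDEV 1, 1 without CON-BDEV 3 or Vehicle 3 and 0 without Vehicle 1 or Vehicle 2), Psmb5 the most (0.38), with 24 of the 42 above Vehicle in all vesicle libraries (57.1%, against 16.6% of all tested genes).

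Few growth and energy genes passed, apart from those of glycolysis. Of 29 mitosis genes 11 had all vesicle libraries below all Vehicle libraries (37.9%, against 12.7% of all tested genes). Of these 29, 1 fell, Cenpf (-0.23), a share of 3.45%. That count was 3 without CON-BDEV 2, 2 without CON-BDEV 1 and 0 without CON-BDEV 3 or any Vehicle library. Of 33 replication genes 1 fell, Mcm7 (-0.18), a share of 3.03%. The lower count of replication genes was 4 without CON-BDEV 1, 1 without CON-BDEV 2 and 0 without CON-BDEV 3 or any Vehicle library. Their higher count was 1 without CON-BDEV 1 or CON-BDEV 2 and 0 without each of the others. Both shares stand against 1.86% of all tested genes that fell. Of 29 glycolysis and hypoxia genes 6 fell (20.7%, against 1.86% of all tested genes) and 0 rose (lower 9 without CON-BDEV 1, 6 without CON-BDEV 2 and 1 without CON-BDEV 3 or any Vehicle library; higher 1 without CON-BDEV 1 or CON-BDEV 2 and 0 without CON-BDEV 3 or any Vehicle library); Bnip3, a hypoxia-induced mitophagy receptor, was the stable one, at 38.9, 37.7 and 40.4 against 29.7, 25.4 and 24.99 FPKM (-0.53), and Ankrd37 and Aldoc fell by 0.72 and 0.22 on the log2 scale. Of 40 oxidative phosphorylation genes 2 rose, Ndufa2 (0.19) and Cyc1 (0.15), a share of 5%, close to the 3.81% of all tested genes. The count was 8 without CON-BDEV 1, 1 without CON-BDEV 2 and 0 without CON-BDEV 3 or any Vehicle library. In 22 of the 40, all vesicle libraries lay above all Vehicle libraries (55.0%, against 16.6% of all tested genes). Among 15 arginine and polyamine genes 1 rose, Sat1, which acetylates polyamines for export (0.37), and 1 fell, Arg1, as given above (higher 2 without CON-BDEV 1, 1 without CON-BDEV 2 or CON-BDEV 3 and 0 without any Vehicle library; lower 2 without CON-BDEV 2, 1 without CON-BDEV 1, Vehicle 1 or Vehicle 3 and 0 without CON-BDEV 3 or Vehicle 2). Among 13 matrix genes 1 rose, the collagen Col4a1 (0.34), and 1 fell, Mmp12 (higher 2 without CON-BDEV 2, 1 without CON-BDEV 1 and 0 without CON-BDEV 3 or any Vehicle library; lower 1 without CON-BDEV 1, CON-BDEV 2, CON-BDEV 3 or Vehicle 2 and 0 without Vehicle 1 or Vehicle 3). Over all 36 lists 672 genes were tested, of which 98 rose and 47 fell, so most of the 597 called genes lie outside the lists.

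Vesicles from control brain were also compared with those labelled SE-BDEV, in 1 fit of all 9 libraries. None of 10532 genes passed (limma adjusted p under 0.05, 0%), with 509 at an unadjusted p under 0.05. In the fits without 1 library the count was 1 without CON-BDEV 1 and 1 without SE-BDEV 2, and 0 without each of the others. Of the 597 genes changed by control vesicles, 48 differed at an unadjusted p under 0.05 and 579 had a 95% interval of the difference that lay within 0.5 log2 units of 0. The change against Vehicle was itself under 0.5 in 318 of the 401 genes that rose and 174 of the 196 that fell. For those genes the margin cannot decide whether the 2 kinds of vesicles had the same effect. For Gclm the difference SE-BDEV minus CON-BDEV was 0.09 with a 95% interval of -0.28 to 0.46, for Slc7a11 0.12 (-0.19 to 0.44), for Insig1 -0.11 (-0.46 to 0.23) and for Scd2 -0.02 (-0.25 to 0.21). The largest gap among the named genes was in Hotairm1, which was at 10.7, 14.1 and 18.9 FPKM in the SE-BDEV libraries against 31.4, 27.99 and 40.7 FPKM in CON-BDEV, a difference of -1.16 (-1.75 to -0.57, limma adjusted p = 0.958). The SE-BDEV libraries 1, 2 and 3 are named EV Pilo 1C2, 2B2 and 2C4. In that order, the 3 called ATF4 list genes were each highest in SE-BDEV 1. Slc6a9 was at 28.8, 22.4 and 19.04 FPKM, Slc3a2 at 155.7, 134 and 118 FPKM and Slc38a2 at 273, 241 and 228 FPKM. How the library-name number relates to these levels was not tested.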

How the data were processed

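Poly(A) RNA of 9 libraries was sequenced; the 6 Vehicle and CON-BDEV libraries are the subject here. The deposited tables give FPKM per gene, which the authors made with TopHat2 and Cuffdiff on mm9, per the submitters' processing notes, with versions not given in the sources used here. The authors' deposited comparison tables add log2 fold changes, test scores, p-values and q-values from Cuffdiff. The loci printed are those of the authors' tables. Values were taken as log2(FPKM + 1), for genes whose mean reached 1 FPKM, and tested with limma 3.58.1 in R 4.3.3 (eBayes with a mean-variance trend, 2-sided, Benjamini-Hochberg over 10535 genes, threshold 0.05); FPKM are not counts, so no count model was fitted. A permutation test of 3 against 3 cannot go below p = 0.1. Depth was estimated from the steps between low FPKM values of 117 long genes. The comparison with SE-BDEV used 1 fit over 9 libraries.

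The fits were tested on simulated data. Genes were named by rule: the 12 strongest rises and 12 strongest falls of called genes without overlap, the 6 largest rises and falls in mean FPKM, up to 3 called members of each list (or the 2 most abundant where none was called), and the 6 highest and lowest stable genes. Other named genes are said to be chosen after their values were seen, apart from markers given to check the cell type, genes that share a listed locus and those at the edge of the filter. A few genes are not reported here by name. The genes and the 36 lists were chosen with earlier results of these data known. Alternatives were another pseudocount, other filters, quantile and median scaling, other variance models, 2 blocks, leaving out each library, and Cuffdiff. The replicate numbers of the titles were checked for pairing: same-number libraries correlated at -0.07, -0.00 and 0.18 in their deviations from the group means, so 1 of 3 pairs exceeded 0.1 and no pairing was used.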

Additional observations from a re-analysis of the deposited data

How the results depend on the processing

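The count of called genes was 112 (78 higher, 34 lower) with no filter on low values, and without a mean-variance trend 262 were higher. Leaving out 1 library at a time gave 84 to 1067 called genes, 66 to 687 higher and 18 to 380 lower; the comparison of SE-BDEV with CON-BDEV gave 0 to 1. Median scaling gave 345 higher and 210 lower and quantile normalization 301 and 249. The replicate block, which was fitted although the numbers did not pair the libraries, gave 364 (250 higher, 114 lower), and the library-name number as a block 275 (192 higher, 83 lower). Hspa8, which did not pass, went from -0.10 to 0.045 without CON-BDEV replicate 2 and ranged from -0.23 to 0.045 over the fits without 1 library. Of the 104 genes named by the rule, 104 kept direction and side of the threshold with 0.1 FPKM added, 79 by the authors' deposited Cuffdiff q, 85 with the replicate block, 30 with no filter, and 41 to 100 without 1 library. Cuffdiff called 459 tested genes at q under 0.05, of which 317 were also called by limma, none in the opposite direction. Differences within each number of the library names were added after seeing the data. Depth gives 57.6 to 66.6 fragments per FPKM of a 2 kb transcript. The causes of these changes were not tested.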

Other observations

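Several of the 70 stable genes belong to none of the lists and were chosen after their values were seen. Gbe1, the branching enzyme of glycogen, was at 11.3, 10.9 and 11.6 FPKM in Vehicle and 22.1, 19.5 and 23.9 FPKM in CON-BDEV (log2 fold change 0.90). Pcx, the mitochondrial pyruvate carboxylase, was at 16.3, 15.9 and 16.4 against 25.9, 23.3 and 29.9 FPKM (0.66), and Mpc1, a subunit of the mitochondrial pyruvate carrier, at 74.6, 74.1 and 75.3 against 99.1, 98.01 and 98.7 FPKM (0.40). Abcb6, a porphyrin transporter, was at 22.2, 23.1 and 23.4 against 39.7, 33.3 and 43.98 FPKM (0.73). Bcl6, a transcriptional repressor, was at 12.1, 12.4 and 12.3 against 18.3, 16.5 and 20.3 FPKM (0.54). The metal-binding protein gene Mt2 was at 452, 442 and 458 against 570.4, 623 and 656 FPKM (0.45). The related gene Mt1, also chosen after its values were seen, did not pass (0.03, limma adjusted p = 0.806). Its levels were 929, 875 and 905 FPKM in Vehicle and 994, 848 and 928 FPKM in CON-BDEV. The zinc exporter Slc30a1 was at 8.63, 8.94 and 7.91 against 11.8, 11.4 and 13.2 FPKM (0.47), whereas the zinc importer Slc39a10 fell from 36.6, 36.03 and 37.4 to 29.4, 27.99 and 25.9 FPKM (-0.39). Also lower were Myh10, a non-muscle myosin (13.2, 13.01 and 13.6 to 8.92, 9.995 and 9.03 FPKM, -0.47), and Dnmt3a, a DNA methyltransferase (37.6, 37.9 and 38.7 to 31.2, 30.9 and 30.8 FPKM, -0.29).

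Some large differences did not pass the threshold; the 3 genes given here were chosen after their values were seen. Of 25 genes with a log2 fold change of at least 0.5 in size that did not pass, 14 had overlapping groups and 10 had a mean under 5 FPKM. Snora78, a small nucleolar RNA, was at 835.8 FPKM in CON-BDEV 1 and listed at 0 in the other 5 libraries. Snhg9, a small nucleolar RNA host gene, was at 32.4 FPKM in Vehicle 2 and listed at 0 in the others. Both entries have the same listed locus in mm9, chromosome 17 from 24856476 to 24856910, and the authors' Cuffdiff tested neither. The host gene Snhg1 had the order of the ATF4 genes, at 98.5, 97.98 and 95.1 FPKM in Vehicle and 106, 159 and 159.8 FPKM in CON-BDEV.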
